A study of Mus musculus with 41 samples.

Results

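The genes described here encode the prolyl and lysyl hydroxylases that act on collagen and the prolyl hydroxylases that act on the hypoxia-inducible factor. There are 9 of them, P4ha1, P4ha2, P4ha3, Plod1, Plod2, Plod3, Egln1, Egln2 and Egln3, among 18194 genes that the array platform names with a single symbol. Every probe set carrying one of these symbols was taken, which gave 14 of 45037. P4ha2 was chosen by its measured differences between high and low and between high and medium mice on these same arrays, and the other 8 genes were added as its family. Since values of high, medium and low arrays entered that choice, all of its differences are given as a description without a test.

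Hippocampal RNA from 41 male C57BL/6J mice, an inbred strain with no engineered allele named in the labels, was measured with 1 array per mouse. The mice had been ranked on learning and memory from tests that began at an age of 10 weeks and ended with passive avoidance at 37 to 38 weeks, and RNA was taken 1 month later. The groups were 5 mice ranked high by both of the study's ranking systems, 12 ranked medium by both and 8 ranked low by both. A further 14 mice whose 2 rankings disagreed formed the inconsistent group, and 2 mice with incomplete behavioural data entered no comparison. The labels name no treatment. The label of inconsistent replicate 2 also places it in the medium group, and moving it there changed no count of called hydroxylase probe sets.

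Collagen chains are hydroxylated in the endoplasmic reticulum before they fold. The P4ha genes encode the catalytic alpha subunits of prolyl 4-hydroxylase, which work with the P4hb subunit and make the hydroxyproline that keeps the collagen triple helix stable. The Plod genes encode lysyl hydroxylases, whose products carry sugars and cross-links between chains, and the Egln genes encode the oxygen sensors that mark the hypoxia-inducible factor for destruction when oxygen is present. All 9 enzymes need oxygen, iron and 2-oxoglutarate. In many cell types P4ha1, P4ha2 and Egln3 are themselves transcribed at higher rates under the hypoxia-inducible factor.

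The promoters of the P4ha genes are shown because P4ha1 and P4ha2 varied together across the arrays and because the hypoxia-inducible factor is known to bind the core letters ACGTG and GCGTG. Each window runs from 250 bases before to 50 bases after the RefSeq gene start on GRCm38.p6, read 5′ to 3′ on the gene's plus strand. Capitals mark ACGTG or GCGTG on either strand, so that CACGT and CACGC are matches on the reverse strand. The windows are chr11:54100674-54100973 for P4ha2, chr10:59323046-59323345 for P4ha1 and chr7:100285270-100285569 for P4ha3.
P4ha2: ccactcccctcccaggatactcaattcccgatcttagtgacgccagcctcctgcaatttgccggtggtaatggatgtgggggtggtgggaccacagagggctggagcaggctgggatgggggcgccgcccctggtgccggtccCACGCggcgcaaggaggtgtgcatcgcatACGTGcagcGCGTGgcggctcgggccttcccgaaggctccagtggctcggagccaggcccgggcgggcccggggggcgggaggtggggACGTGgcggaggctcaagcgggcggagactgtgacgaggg
P4ha1: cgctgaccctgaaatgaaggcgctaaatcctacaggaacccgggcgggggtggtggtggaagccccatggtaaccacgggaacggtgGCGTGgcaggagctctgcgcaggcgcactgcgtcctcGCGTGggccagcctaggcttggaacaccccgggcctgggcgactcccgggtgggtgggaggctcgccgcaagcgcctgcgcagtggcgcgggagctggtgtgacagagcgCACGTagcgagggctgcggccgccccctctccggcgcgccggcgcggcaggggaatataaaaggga
P4ha3: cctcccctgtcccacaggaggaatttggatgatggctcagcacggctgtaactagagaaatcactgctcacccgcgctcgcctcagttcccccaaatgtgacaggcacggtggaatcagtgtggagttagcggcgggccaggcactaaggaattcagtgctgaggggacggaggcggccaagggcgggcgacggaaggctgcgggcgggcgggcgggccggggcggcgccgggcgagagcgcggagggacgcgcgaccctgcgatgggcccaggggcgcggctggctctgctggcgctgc

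The P4ha2 window held 4 matches, 2 of ACGTG and 2 of GCGTG, and 1 of the ACGTG matches began 10 bases after the gene start. The P4ha1 window held 3, of which the ACGTG match began 16 bases before the start. The P4ha3 window held 0, which says only that these letters are not in it. The other genes' windows held 4 matches for Plod3, 6 and 1 for the 2 windows of Egln2, 2 for Plod1, 2 for Egln1 and 1 for Egln3. Over the 41 arrays Plod3 and Egln2 levels had r of 0.09 and 0.02 with P4ha2. A relation between the number of matches and r was not tested. Of 32851 RefSeq promoters, 19.6% held ACGTG, 32.4% held GCGTG and 43.8% held either, while 8.93% held at least 3 matches. These windows are rich in G and C, at 70.3% for P4ha2, 70.3% for P4ha1 and 69.3% for P4ha3 against a median of 52.7% over all promoters. Among the 4820 promoters with 65 to 75% G and C, 72.4% held either motif and 22.3% held at least 3 matches. RefSeq promoters were found for 8 of the 9 genes, and a match is a description of letters and not of a bound site.

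Levels below are log2(intensity + 16) after quantile normalization, and a difference of 1 is a doubling for a gene far above the offset of 16. For dim genes the offset makes differences smaller than the change in intensity. Probe sets with a mean intensity at or above 38.4, the median over all probe sets, were tested. Of the 14 probe sets 10 passed this filter, covering 7 genes. Plod2 1416686_at lay just inside it at a mean of 43.1, and Egln3 1418649_at just outside at 29.9. P4ha3, Egln3 and the second Plod1 probe set 1445893_at are given as values only.

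The arrays were alike, with pairwise correlations between 0.949 and 0.993 and a median of 0.986. Medium replicate 9 stood apart, and without it the lowest correlation was 0.966. All 10 hippocampal neuron markers passed the filter, among them Prox1 and Neurod6. In medium replicate 9 their mean level was 7.41 and that of striatal neuron markers 8.73, against striatal means no higher than 7.77 in the high, low and inconsistent arrays. Bacterial and phage spike-in probe sets divided the arrays into 3 sets of 8, 10 and 23, which the labels do not name. These spike-in groups held 0, 1 and 4 high arrays, so values are also given within them. Array medians before normalization ran from 22.4 to 55.2.

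P4ha2, the alpha subunit gene of the second form of prolyl 4-hydroxylase, had higher levels in high mice than in medium and low mice, with 1 medium and 1 low array inside the range of the high arrays. Its single probe set, 1417149_at, read 6.67, 6.70, 6.57, 6.48 and 6.34 in the 5 high arrays. In the 12 medium arrays it ran from 5.80 over a median of 6.08 to 6.39, and in the 8 low arrays from 6.01 over 6.15 to 6.37. The highest medium array, medium 3, and the highest low array, low 7, lay above the lowest high array, high 5, and 4 of the 5 high arrays lay above every medium and every low array. High mice averaged 6.55 ± 0.15 (SD, n = 5). Medium mice averaged 6.07 ± 0.19 (SD, n = 12), and low mice 6.14 ± 0.12 (SD, n = 8). The log2 difference was 0.48 ± 0.11 (SE) for high minus medium and 0.41 ± 0.11 for high minus low, folds of 1.39 and 1.33. These comparisons share the 5 high arrays. In hippocampal tissue, more cells expressing P4ha2 and more RNA per cell cannot be told apart.

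**Figure D1:**
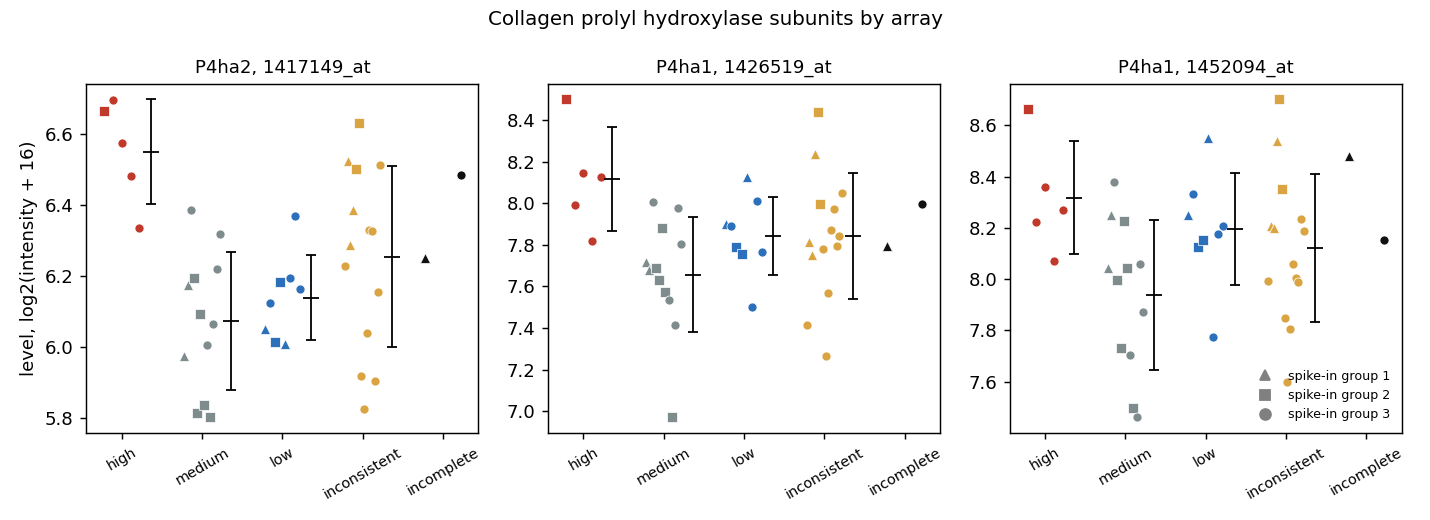
Levels of P4ha2 and of both P4ha1 probe sets, as log2(intensity + 16), in each of the 41 arrays by group, with bars for the mean and SD of groups over 2 arrays and symbols for the spike-in group. The 5 high arrays of P4ha2 lie between 6.34 and 6.70, and the inconsistent arrays spread over both ends, from 5.83 to 6.63.

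The inconsistent mice covered almost the whole range of P4ha2. Their 14 arrays ran from 5.83 over a median of 6.31 to 6.63, and 5 of them lay above the lowest high array. Their mean was 6.26 ± 0.26 (SD, n = 14), with high minus inconsistent at 0.30 ± 0.10 (SE) and medium minus inconsistent at -0.18 ± 0.08. Low minus inconsistent was -0.12 ± 0.09. The medium and low groups also lay within their spread of each other, with a difference of -0.07 ± 0.09. In order of the group means, high came first, then inconsistent, low and medium. The 2 mice with incomplete data read 6.25 and 6.49.

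P4ha2 lay higher in high than in medium and low arrays within both spike-in groups that held high arrays. In the group of 10, the single high array lay 0.72 above the mean of 5 medium arrays and 0.57 above the mean of 2 low arrays. In the group of 23, 4 high arrays lay 0.32 above 5 medium arrays and 0.31 above 4 low arrays. The low minus inconsistent difference was -0.37 in the group of 8, -0.47 in the group of 10 and 0.08 in the group of 23. High minus inconsistent was 0.10 in the group of 10 and 0.38 in the group of 23. Medium minus inconsistent was -0.32 in the group of 8, -0.62 in the group of 10 and 0.06 in the group of 23, so the sign of both differences from inconsistent mice that do not use high arrays turned in the largest group. The spike-in groups of 8 and 10 held only 2 low arrays each.

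Beside this, marker means were taken over all listed genes on the array, dim ones included, which were 8 striatal and 11 choroid plexus genes. Striatal neuron markers had mean levels from 7.40 to 7.61 in high, 7.55 to 8.73 in medium and 7.52 to 7.68 in low arrays. Of 10 listed striatal markers 7 passed the filter. Of these 7, 1 lay above 0 for high minus medium, with a median of -0.23. In the limma test 0 passed, and 4 had an unadjusted p under 0.05, against 14.5% of all tested probe sets. For high minus low 1 of the 7 lay above 0, with a median of -0.12, and for high minus inconsistent 2, with a median of -0.17. Their unadjusted limma p was under 0.05 for 1 and 4 markers, against 8.64% and 10.9% of all tested probe sets. P4ha2 and this marker mean had r = -0.39 over 41 arrays and -0.34 without medium 9. Choroid plexus markers, 10 of 13 past the filter, had means from 5.47 to 5.84 in high, 5.28 to 8.93 in medium and 5.26 to 8.98 in low arrays, and P4ha2 and their mean had r = -0.19. Of these 10, 0 lay above 0 for high minus medium, with a median of -0.96, and 0 had an unadjusted limma p under 0.05. For high minus low these counts were 0 and 0 as well, with a median of -1.13. The group medians of the marker mean were close, at 5.76 in high and 5.78 in medium mice. Medium 2, 5, 6 and 11 read 8.89, 7.63, 8.93 and 8.71, and the other medium arrays at most 6.23. For marker means of meningeal fibroblasts, endothelium, pericytes and smooth muscle, astrocytes, oligodendrocytes, microglia and hippocampal neurons, r with P4ha2 lay between -0.15 and 0.22. The r of 0.22 was that of hippocampal neurons, and it was -0.10 without medium 9. For high minus medium, 9 of 9 tested microglia markers lay above 0, with a median of 0.04. Of 9 astrocyte markers 5 lay above 0, with a median of 0.02, and 1 passed the limma test, with a lower level in high mice. Of all tested probe sets 51.8% lay above 0 in this comparison and 0.115% passed. The part of tissue composition in the P4ha2 difference was not tested.

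P4ha1, the most widely used of the alpha subunits, had higher means in high than in medium mice at both probe sets without passing the test, in the contrast on which P4ha2 was chosen. At 1426519_at the 5 high arrays read 8.50, 7.99, 8.15, 7.82 and 8.13. The medium arrays ran from 6.97 over a median of 7.68 to 8.01, the low arrays from 7.50 over 7.84 to 8.13 and the inconsistent arrays from 7.27 over 7.83 to 8.44. All 5 high arrays lay above the medium mean of 7.66 and 3 of them above every medium array, the lowest medium value being that of medium 9. High minus medium was 0.46 ± 0.14 (SE), with a limma adjusted p of 0.134, and high minus low was 0.27 ± 0.15, with an adjusted p of 0.609. The other probe set, 1452094_at, gave 0.38 ± 0.14 and 0.12 ± 0.15, with adjusted p of 0.205 and 0.849. With array weights, high minus medium at 1426519_at passed the test, at 0.41 with an adjusted p of 0.0488, in a fit that called 503 probe sets against 26 without weights. Without high replicate 1, the highest high array at both probe sets, the differences at 1452094_at were 0.29 for high minus medium and 0.03 for high minus low. Within the spike-in group of 23, high minus medium was 0.27 at 1426519_at and 0.34 at 1452094_at. Over 41 arrays 1452094_at had r = -0.39 with the striatal marker mean, 0.33 with hippocampal neurons, -0.32 with microglia and -0.21 with endothelium. Without medium 9 these were -0.20, 0.03, -0.41 and -0.13. With group means taken out they were -0.28, 0.30, -0.53 and -0.43. Its r with the difference between 3′ and 5′ control probe sets was 0.00, and 0.46 without medium 9. The part of tissue composition and RNA quality in the P4ha1 differences was not tested.

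Over all arrays medium mice had the lowest P4ha1 mean of the 4 groups at both probe sets. At 1452094_at high mice averaged 8.32 ± 0.22 (SD, n = 5) and medium mice 7.94 ± 0.29 (SD, n = 12). Low mice averaged 8.20 ± 0.22 (SD, n = 8) and inconsistent mice 8.12 ± 0.29 (SD, n = 14). Medium minus low was -0.26 ± 0.12 (SE) at this probe set, with a limma p of 0.0358 before and 0.997 after adjustment, and -0.19 ± 0.12 at 1426519_at. In the spike-in group of 23, medium minus low was -0.23 at 1452094_at and -0.05 at 1426519_at, where medium mice averaged 7.75 and inconsistent mice 7.73, so medium was not the lowest there. The medium and low arrays overlapped, 4 of 12 medium arrays lying below every low array at 1452094_at. Low minus inconsistent was 0.07 ± 0.12 at 1452094_at and close to 0 at 1426519_at, where both means were 7.84.

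P4ha3, an alpha subunit gene with low levels in most tissues, was dim on every array. Its probe set 1446951_at read 5.01, 4.93, 4.84, 4.83 and 4.47 in high arrays and ran from 4.41 to 5.39 in medium, 4.39 to 5.19 in low and 4.17 to 5.09 in inconsistent arrays. The groups overlapped throughout, and the measured intensity was never above 30.8. High minus medium was -0.10 ± 0.14 (SE) and high minus low 0.01 ± 0.15.

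The lysyl hydroxylase genes showed small differences with overlapping groups. Plod1, which hydroxylates lysines of the helical parts of collagen, read 6.62, 6.38, 6.98, 6.23 and 6.24 in high arrays at 1416289_at, with medium arrays from 6.31 over a median of 6.60 to 6.69 and low arrays from 6.09 over 6.61 to 6.69. Its high arrays were the most scattered of the 3 groups, 1 above and 2 below all medium arrays. High minus medium was -0.05 ± 0.11 (SE), high minus low -0.04 ± 0.12 and low minus inconsistent -0.10 ± 0.09.

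Plod2, which hydroxylates lysines of the telopeptides and so governs the cross-link type, was read by 2 probe sets that did not move together. At 1416687_at the high arrays read 6.10, 6.47, 6.23, 5.88 and 5.75, against 5.70 to 6.33 in medium and 5.83 to 6.29 in low arrays. At 1416686_at they read 5.98, 6.01, 5.58, 5.91 and 6.18, against 5.68 to 6.13 and 5.59 to 6.35. Over the 41 arrays the 2 probe sets had r = 0.00, so array-to-array values of Plod2 are uncertain. In both, the inconsistent mice had the lowest mean, with low minus inconsistent at 0.14 ± 0.08 (SE) and 0.11 ± 0.08 and limma adjusted p of 0.997 for each. High minus medium was -0.00 ± 0.10 and 0.01 ± 0.10.

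Plod3, which hydroxylates lysine and also attaches the sugars, read 7.99, 7.79, 7.70, 7.88 and 7.79 in high arrays. Medium arrays ran from 7.54 over a median of 7.84 to 8.03, low arrays from 7.56 over 7.71 to 7.96 and inconsistent arrays from 7.58 over 7.80 to 8.02. The groups lay on each other, with high minus medium at 0.04 ± 0.07 (SE), high minus low at 0.10 ± 0.08 and low minus inconsistent at -0.07 ± 0.06. The whole range over 41 arrays was 0.49.

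**Figure D2:**
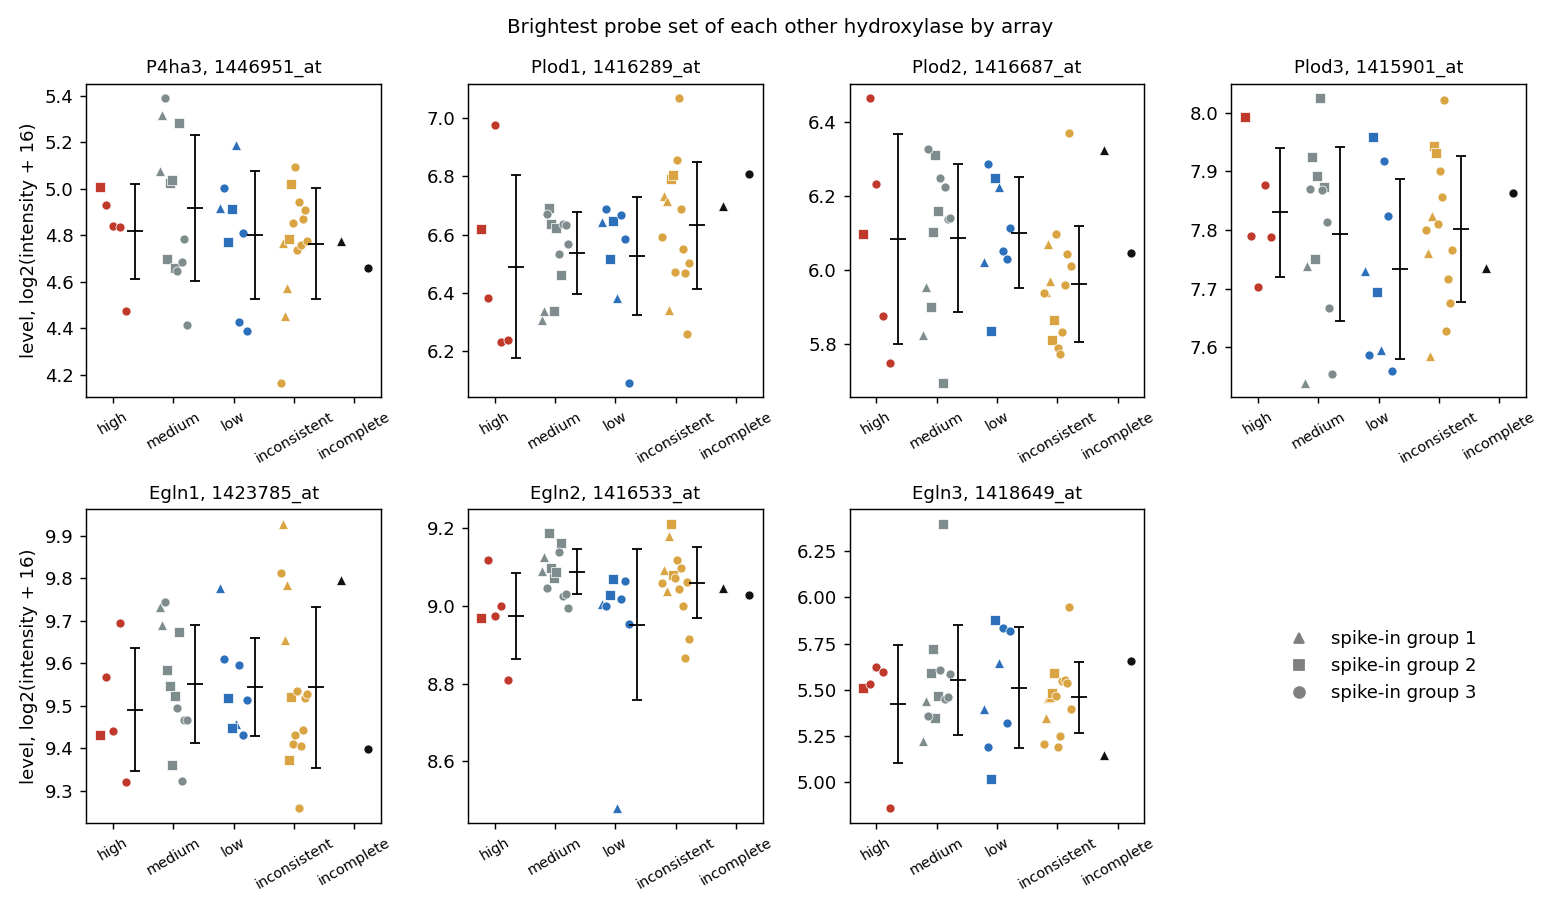
Levels of 1 probe set for each of the other 7 hydroxylase genes, the one with the highest mean over all arrays, as log2(intensity + 16), by group, with bars for the mean and SD of groups over 2 arrays. Each panel has its own axis, and the groups overlap in all 7 panels. Low 5 reads 8.48 for Egln2 and high 5 reads 4.86 for Egln3, each apart from the other arrays of its group.

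Among the oxygen sensors, Egln1, the main hydroxylase of the hypoxia-inducible factor in most cells, read 9.43, 9.57, 9.44, 9.69 and 9.32 in high arrays at 1423785_at. Medium arrays ran from 9.32 over a median of 9.53 to 9.74, low arrays from 9.43 over 9.52 to 9.78 and inconsistent arrays from 9.26 over 9.52 to 9.93. The 4 groups overlapped, the inconsistent arrays spreading furthest, and high minus medium was -0.06 ± 0.08 (SE). The second probe set, 1451110_at, had r = -0.21 with the first over 41 arrays and gave -0.06 ± 0.09 for high minus medium and -0.16 ± 0.10 for high minus low. At 1423785_at, r with the difference between 3′ and 5′ control probe sets, a sign of RNA quality, was 0.44.

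Egln2 had the narrowest spread among the tested probe sets of the family, with a within-group SD of 0.11 against a median of 0.16 over all tested probe sets. Its high arrays read 8.97, 9.12, 8.97, 9.00 and 8.81, with medium arrays from 9.00 over a median of 9.09 to 9.19 and low arrays from 8.48 over 9.01 to 9.07. In 8 of 12 medium arrays Egln2 was above every low array, and 3 of 5 high arrays were below every medium array. Medium minus low was 0.14 ± 0.05 (SE), with a limma p of 0.0156 before and 0.997 after adjustment, and it was 0.07 without low 5. High minus medium was -0.11 ± 0.06, with an adjusted p of 0.405.

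Egln3, the sensor most strongly induced under low oxygen, was under the filter at both probe sets. At 1418649_at it read 5.51, 5.53, 5.62, 5.59 and 4.86 in high arrays and ran from 5.22 over a median of 5.46 to 6.40 in medium, 5.01 over 5.52 to 5.88 in low and 5.19 over 5.46 to 5.95 in inconsistent arrays. The value of 6.40 was that of medium 9, the array with bright striatal markers. Its r with the striatal marker mean was 0.52 over 41 arrays and 0.09 without medium 9. With the hippocampal marker mean r was -0.56, and -0.15 without that array. The 2 Egln3 probe sets had r = 0.45, and 0.29 without medium 9.

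Across the family, 0 of the 9 tested probe sets other than that of P4ha2 passed a limma adjusted p of 0.05 in any of the 6 comparisons. In the same fit 0.00444% of 22519 tested probe sets passed for high minus low, 0.115% for high minus medium and 0.00444% for high minus inconsistent, which were 1, 26 and 1 probe sets. In medium minus low, medium minus inconsistent and low minus inconsistent, 0% passed. At an unadjusted p under 0.05 the 9 probe sets gave 0 for high minus low, 2 for high minus medium, both of P4ha1, 2 for medium minus low, 1 for high minus inconsistent, 0 for medium minus inconsistent and 1 for low minus inconsistent. All tested probe sets gave 1945, 3256, 814, 2448, 1057 and 944 in that order. With shares this small over all probe sets, a count of 0 for the family is near the background.

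**Figure D3:**
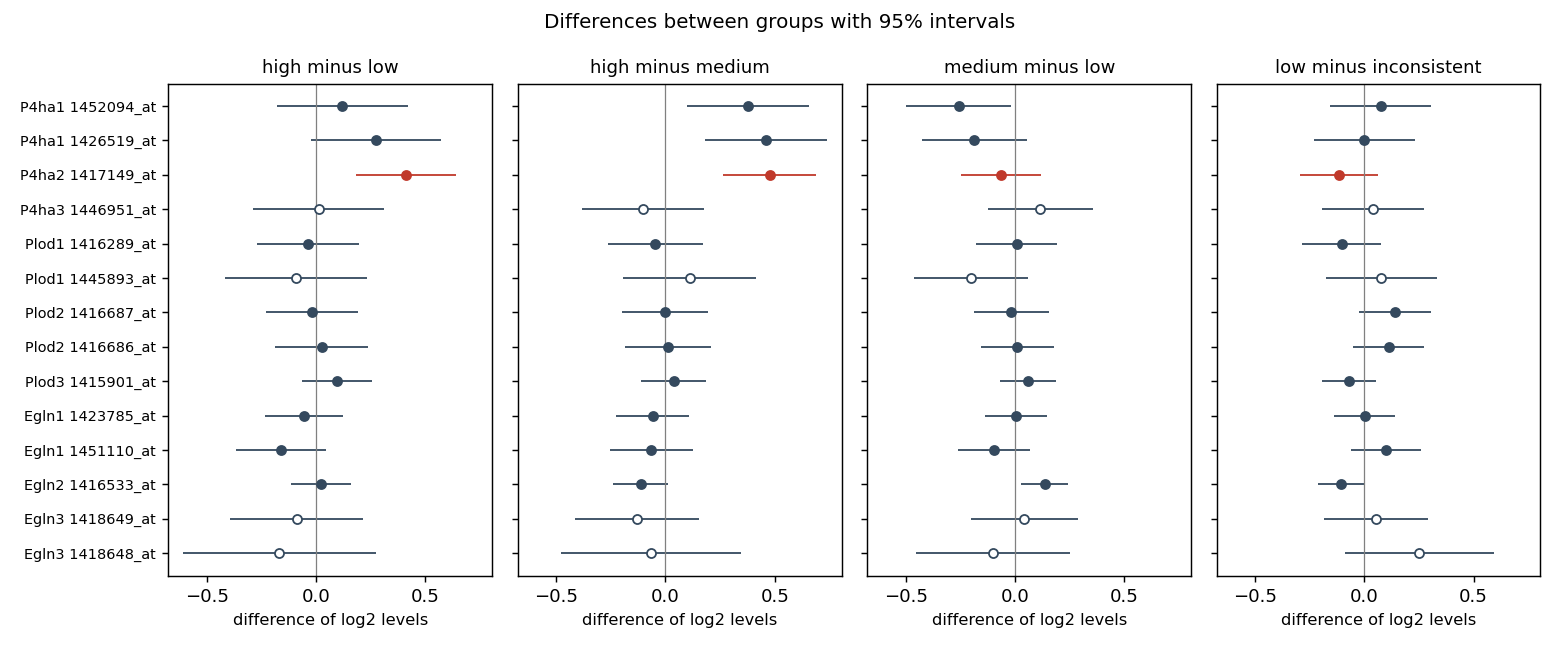
Differences of group means, in log2(intensity + 16), for all 14 probe sets in 4 comparisons, with 95% intervals from the limma fit. For P4ha2 the intervals are no test, because they take no account of its choice by values of these arrays. Filled points passed the brightness filter, open points did not, and P4ha2 is in red. The P4ha2 point lies at 0.41 for high minus low and 0.48 for high minus medium. The P4ha1 points lie at 0.12 and 0.27 for high minus low and at 0.38 and 0.46 for high minus medium, and the points of the other 7 genes lie nearer to 0 in high minus medium.

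P4ha1 and P4ha2 levels varied together across most of the arrays. Over the 41 arrays r was 0.68 for 1426519_at and 0.59 for 1452094_at, while the 2 P4ha1 probe sets had r = 0.85 with each other. Without medium 9 r with P4ha2 was 0.65 and 0.55. With group means taken out it was 0.58 and 0.55 over 39 arrays, and with high arrays also left out 0.60 and 0.56 over 34. These arrays share their normalization and tissue composition, so r is a description. Among 22518 other tested probe sets, 1426519_at had the second highest r with P4ha2 and 1452094_at was number 51, where the median r was 0.01 and 1.17% lay over 0.5. Tested probe sets of the other 5 genes had r with P4ha2 between -0.13 and 0.11.

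The relation was not alike in every set of arrays. Within the 12 medium arrays r was 0.70 and 0.55 for the 2 P4ha1 probe sets, and within the 14 inconsistent arrays 0.66 and 0.77. Within the 8 low arrays it was -0.14 and -0.41. By spike-in group it was 0.08 and 0.12 in the group of 8, 0.84 and 0.86 in the group of 10 and 0.69 and 0.63 in the group of 23. In the low arrays, low 5 had the highest P4ha1 and the lowest P4ha2 level.

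**Figure D4:**
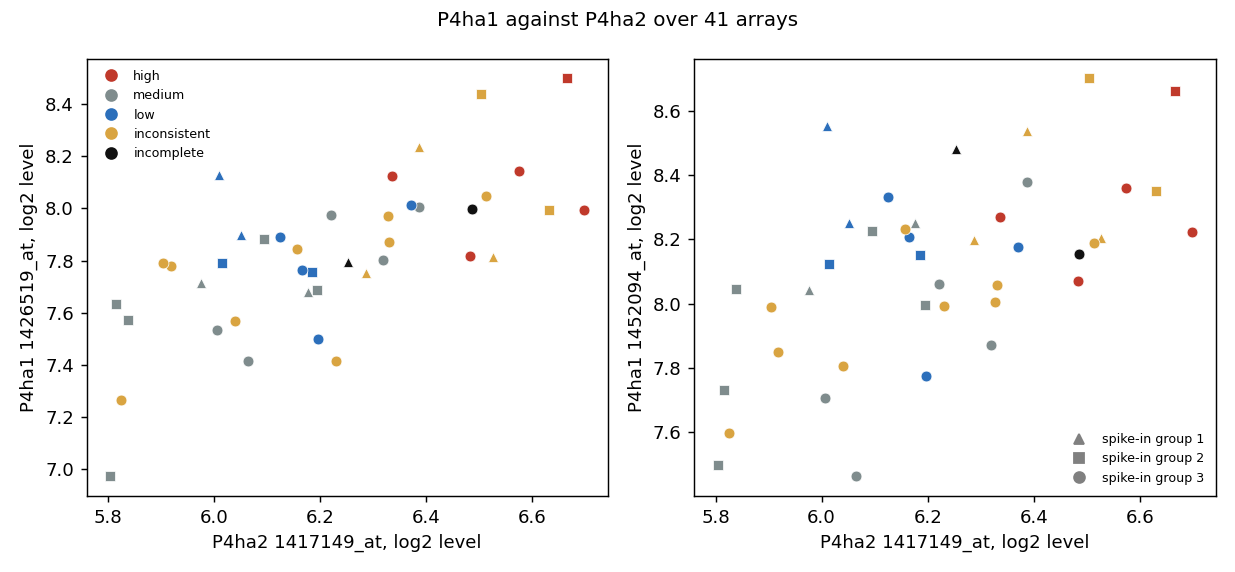
Level of each P4ha1 probe set against that of P4ha2, both as log2(intensity + 16), over the 41 arrays, coloured by group and with symbols for the spike-in group. The points rise from lower left to upper right with r = 0.68 (1426519_at) and r = 0.59 (1452094_at), and the 8 low arrays show no such rise.

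The genes most like P4ha2 over the 41 arrays, besides P4ha1, were Kdm3a, Fip1l1, Mtmr4, Trmt1l, Ints8, Cnnm4, Snapc3 and Anapc16. Kdm3a, a histone lysine demethylase that is itself a 2-oxoglutarate dioxygenase, had the highest r of all 22518 at 0.70, and 0.56 with group means taken out. Fip1l1, a factor of messenger RNA 3′ end formation, had r = 0.68 and 0.59. The remaining 6 had r from 0.64 to 0.66, and from 0.47 to 0.55 with group means taken out. Part of this likeness is the difference between groups, which these genes share with P4ha2 on the same arrays: high minus medium ran from 0.16 to 0.34 over the 8 genes.

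The genes that work with the hydroxylases were taken from lists of the pathway, each gene at its brightest probe set. Of the partners that fold, cross-link or cleave collagen, 0 of 17 tested genes passed in either direction, where at most 0.115% of all tested probe sets did. Their median difference was -0.02 for high minus medium, against 0.01 over all tested probe sets. Hspa5, the endoplasmic reticulum chaperone, averaged 11.81 in high and 11.47 in medium mice, a difference of 0.34 ± 0.13 (SE) with a limma adjusted p of 0.222. Fkbp14, a prolyl isomerase of the endoplasmic reticulum, differed by 0.21 ± 0.08. Over 41 arrays their r with P4ha2 was 0.57 and 0.49, and 0.45 and 0.35 with group means taken out. Loxl3, a lysyl oxidase, ran the other way, with high minus low at -0.33 ± 0.12 and r of -0.30, or -0.19 with group means taken out.

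Of the collagen chains, the substrates of the P4ha and Plod enzymes, most had lower means in high mice without passing the test. Of 14 tested chains, 0 passed, near the background of at most 0.115%, and 12 had a difference below 0 for high minus medium, with a median of -0.12, and 12 for high minus low, with a median of -0.11. Of all tested probe sets 51.8% and 52.0% lay above 0 in these comparisons, which share the high arrays. Col4a2, a basement membrane chain, averaged 6.70 in high and 6.95 in medium mice, a difference of -0.26 ± 0.08 (SE) with a limma adjusted p of 0.148. Col6a2, a chain of beaded filaments, differed by -0.35 ± 0.13 in the same comparison, with an adjusted p of 0.220. Col1a2, a fibrillar chain, had its smallest p in low minus inconsistent, at 0.33 ± 0.16. Meningeal fibroblast markers, a list that also holds Col1a2, lay below 0 in 9 of 11 for high minus medium and 10 of 11 for high minus low, and their part in the collagen values was not tested. The chains' r with P4ha2 ran from -0.28 to 0.19 over 41 arrays and from -0.15 to 0.34 with group means taken out. Col6a2 had -0.28 and -0.07, and Col1a2 had 0.14 and 0.34, in that order.

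Genes of the hypoxia-inducible factor pathway came next. Among 17 tested genes of the factor, its degradation and its coactivators, 0 passed in any comparison, near the background of at most 0.115% of all tested probe sets. Crebbp, an acetyltransferase coactivator, averaged 9.45 in high and 9.23 in inconsistent mice, a difference of 0.22 ± 0.05 (SE) with a limma adjusted p of 0.154, and had r = 0.55 with P4ha2, or 0.42 with group means taken out. Os9, which binds Egln proteins, differed by -0.14 ± 0.05 and the ubiquitin ligase Siah1a, which degrades them, by 0.20 ± 0.07 in the same comparison. Among 29 tested target genes 0 passed, also near that background. Kdm3a averaged 8.69 in high and 8.42 in medium mice, a difference of 0.27 ± 0.07 with an adjusted p of 0.0850. Tfrc, the transferrin receptor that brings iron into cells, ran opposite, at -0.26 ± 0.09 with an adjusted p of 0.177, and its r with P4ha2 of -0.67 was the lowest of all 22518 tested probe sets, and -0.56 with group means taken out. Ndrg1 had its smallest p in low minus inconsistent, at -0.13 ± 0.05. The targets' r with P4ha2 ran both ways from -0.67 to 0.70, with a median of 0.07 against 0.0089 over all tested probe sets.

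Other enzymes that use 2-oxoglutarate and iron gave 0 of 27 past the test, near the background of at most 0.115%. Alkbh8, a transfer RNA modifying enzyme, averaged 8.49 in high and 8.74 in medium mice, a difference of -0.25 ± 0.08 (SE) with a limma adjusted p of 0.134. Riox2, a ribosomal histidine hydroxylase, differed by -0.20 ± 0.07 for high minus low, with an adjusted p of 0.450. Ogfod2 had its smallest p in low minus inconsistent, at -0.15 ± 0.05. The median r of this list with P4ha2 was -0.07, with a range from -0.47 for Riox2 to 0.47 for Ogfod1, which were -0.35 and 0.36 with group means taken out.

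**Figure D5:**
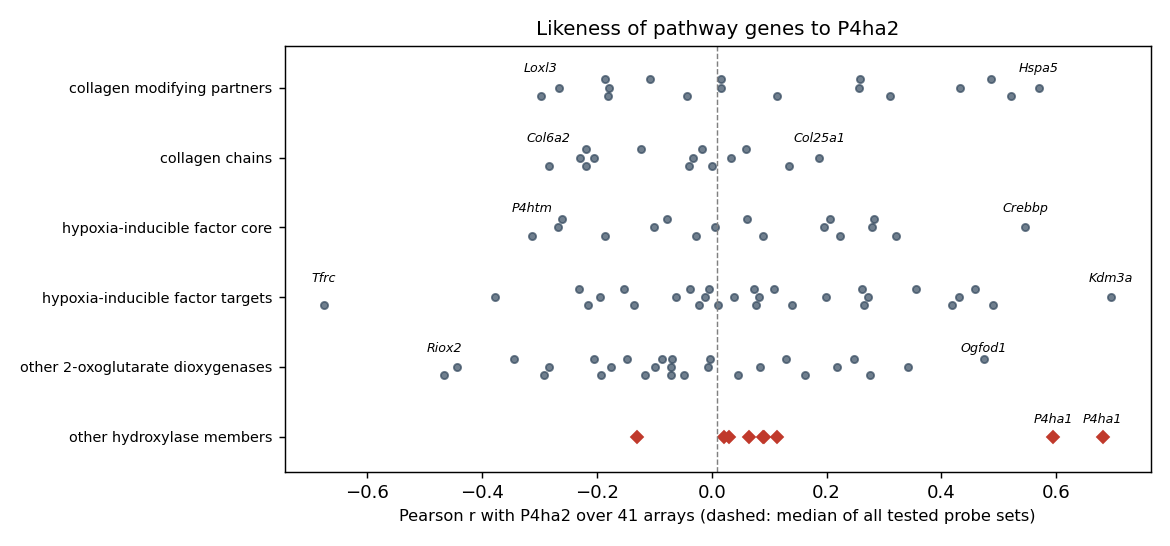
Pearson r with P4ha2 over 41 arrays for the tested genes of 5 pathway lists, each gene at its probe set with the highest mean, and in the bottom line for the other tested hydroxylase probe sets. The highest and lowest gene of each list is named. Both P4ha1 probe sets, at 0.59 and 0.68, lie apart from the other hydroxylases, and among the targets Kdm3a lies at 0.70 and Tfrc at -0.67.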

How the data were processed

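Hippocampal RNA of 41 mice was measured on Affymetrix arrays. Partek and RMA, per the submitters' processing notes, were used, with no version given. The deposited values, by their range of 0.0112 to 13549 in the authors' table, are linear intensities and not log2 values. Their array medians differed, from 22.4 to 55.2, and whether these values are RMA output is not known. Quantile normalization of all 41 arrays was followed by log2(intensity + 16). Of 45037 probe sets that are not controls, 22519 at or above the median mean intensity were tested. Gene symbols came from the platform annotation.

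Limma 3.58.1 in R 4.3.3 fitted 1 mean per group to the 39 arrays of 4 groups with 35 residual degrees of freedom, and Benjamini-Hochberg adjustment ran over all 22519 probe sets with a threshold of 0.05. The labels do not say that arrays were processed in batches; spike-in groups came from clustering 45 control probe sets. Named genes were all members, the 8 genes of highest r with P4ha2, and up to 3 genes with the smallest p of each of 5 pathway lists. Members and lists were chosen with earlier results of these data known. The number of arrays limits the precision. The fit was tested on simulated data with independent normal errors. Recovery was required there only for added log2 differences of 1, so the check does not bear on smaller ones. Alternatives covered the filter, normalization, offset, weights, covariates, spike-in group, a replicate block and each array left out.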

Additional observations from a re-analysis of the deposited data

Results flagged for a closer look

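Of 28 groups of 4 to 10 arrays examined, 2 held an array far from the others of its group, where chance gives about 1 in 20. Egln2 read 8.48 in low replicate 5, and the nearest low array read 8.95. Egln3 at 1418649_at read 4.86 in high replicate 5, and the nearest high array read 5.51.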

How the results depend on the processing

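The count of called probe sets was taken over the 9 tested ones other than that of P4ha2, or fewer where a setting kept fewer. For low minus inconsistent the counted set also held P4ha2, and a count of 0 there is 0 for the 9 as well. It is not read as a test of P4ha2. P4ha3 and Egln3 were never in it. Over 18 other settings (17 where the inconsistent group enters) and 39 fits without 1 array, it was 0 in every comparison with 1 exception. With array weights 1 probe set, P4ha1 1426519_at, passed for high minus medium, at a limma adjusted p of 0.0488. Over the settings the smallest adjusted p of the family in that comparison ran from 0.0488 to 0.667, and with an array left out from 0.0956 to 0.306. With weights all calls in that comparison numbered 503 against 26 here. Calls over all probe sets ran from 0 to 503 for high minus medium and from 0 to 80 with an array left out, from 0 to 26 and 1 to 4 for high minus low, and from 0 to 146 and 0 to 4 for high minus inconsistent. P4ha2 was chosen by its high minus medium and high minus low differences on these arrays, so its kept sign is no support. Its high minus medium lay between 0.29 without normalization, where the median of all probe sets was -0.17, and 0.59 with an offset of 1. Its high minus low lay between 0.29 and 0.51. With an array left out the 2 differences lay between 0.44 and 0.53 and between 0.37 and 0.47, in that order. Low minus inconsistent turned to 0.0762 for P4ha2 in the largest spike-in group alone and to 0.0215 for Plod3 without normalization. Differences within 1 SE of 0 were taken to have no direction. With a replicate block the count was 0 in each comparison, and P4ha1 at 1452094_at differed by 0.20 for high minus medium. Same-numbered arrays did not deviate together, with a median r of 0.02 over 43 pairs, and 3 of 39 arrays lay closest to one of their own number.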
